A study of Mus musculus with 8 samples.

Results

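The Slc25 family of mitochondrial carriers was followed in heart RNA of 4 WT and 4 Mettl3 KO libraries. Members were the protein-coding genes whose symbol is Slc25a followed by a number, without Slc25a20 and with a mean value of at least 1 over the 8 libraries. This gave 42 members among 20313 genes tested and 23045 genes listed. RNA-seq libraries had been made from total heart RNA of Mettl3 lox/lox mice (WT) and of mice with the same loxP-flanked gene and the transgene αMHC-MerCreMer (Mettl3 KO). METTL3 is the enzyme that writes the RNA mark N6-methyladenosine (m6A). Mice of both genotypes were between 10 and 16 weeks old and received tamoxifen at 100 µg per g body weight on 7 days in a row. The αMHC promoter directs the Cre recombinase to cardiomyocytes, and Mettl3 in other heart cells was not measured separately. Since the WT mice lacked the transgene, loss of Mettl3 and presence of MerCreMer cannot be told apart. The labels do not state that replicates came from separate animals, so p-values measure the spread between these libraries.

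Slc25 carriers form the largest family of solute transporters in the mitochondrial inner membrane. Each carrier is built from repeats of a pair of membrane helices with a signature motif, and it opens in turn to the cytosol and to the matrix. ADP/ATP carriers exchange newly made ATP for ADP, and the phosphate carrier brings in the phosphate for ATP synthase. Other members move metabolites of the citric acid cycle, amino acids, iron, glutathione, nucleotides and cofactors such as NAD+, folate and coenzyme A. The heart, which makes nearly all of its ATP in mitochondria, is rich in ADP/ATP carrier 1 (Slc25a4), and loss of this carrier or of the phosphate carrier (Slc25a3) is known to cause cardiomyopathy.

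Values are whole numbers, taken from their pattern and the study's methods to be read counts normalized with DESeq2 and rounded, and they summed to between 2839589 and 2916986 per library. Mettl3 itself had 116 ± 12.8 normalized read counts in WT and 72.2 ± 4.65 in Mettl3 KO libraries (SD, n = 4), so it fell by 0.67 on the log2 scale (limma adjusted p = 0.000184). Called here means a Benjamini-Hochberg adjusted p under 0.05 in limma over all genes tested. Cardiomyocyte markers were abundant in every library, with a sum over 10 genes of 24349 to 25786 in WT and 22750 to 25671 in Mettl3 KO hearts, and 1 of them (Ryr2) was called lower. Of the fibroblast markers 7 of 8 were called higher, with sums of 3648 to 4172 in WT and 4711 to 5671 in Mettl3 KO libraries. Of the endothelial markers 1 of 8 was called higher and 3 lower (5376 to 5526 and 4924 to 5316). Of the atrial genes 4 of 5 were called higher. Their sums were 633 to 743 in WT and 584 to 1476 in Mettl3 KO libraries, and Bmp10 was at 0 in Mettl3 KO replicate 1 as well as in every WT library. The part of these cell types in the carrier results was not tested, apart from a fit with an index of atrial genes as a further term. In bulk RNA, fewer cells of a type and less RNA per cell cannot be told apart.

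The ADP/ATP carriers illustrate how alike some members are, since reads that fit several genes had been discarded. The coding sequences of Slc25a4 and Slc25a5 were identical at 77.5% of their 897 bases, and those of Slc25a31 and Slc25a4 at 66.7% of 891 aligned bases. Of all windows as long as a sequencing read (72 bases), the one in which Slc25a5 came closest to Slc25a4 held 8 differences, against a median of 16. It covers coding bases 52 to 123 in both genes. The best match of Slc25a31 to it, coding bases 91 to 162, held 18 differences. These windows are shown because the level of each ADP/ATP carrier rests on reads that part these genes. Capitals mark bases that differ from Slc25a4 (GENCODE vM21 transcripts).
Slc25a4: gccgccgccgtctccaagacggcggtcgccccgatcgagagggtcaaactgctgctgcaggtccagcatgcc
Slc25a5: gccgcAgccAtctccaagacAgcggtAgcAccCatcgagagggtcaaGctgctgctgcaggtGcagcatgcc
Slc25a31: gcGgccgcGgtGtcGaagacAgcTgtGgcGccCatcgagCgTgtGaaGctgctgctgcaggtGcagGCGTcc
In none of the 3 transcripts did a window of this length occur in another family member. Slc25a5 shared 29.6% of its windows with pseudogenes, among them Gm5560 and Gm5529, so its value leaves out reads lying wholly within these stretches in both genotypes. Of the 42 members, 15 shared any such window with another gene. Slc25a33 shared 11.6% of its windows with Gm13068, Slc25a51 shared 1.24%, and Slc25a4, Slc25a31, Slc25a32 and Slc25a34 shared none.

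In Mettl3 KO hearts 5 Slc25 genes were higher. The genes that rose were Slc25a51, the NAD+ carrier, Slc25a33, a pyrimidine nucleotide carrier, Slc25a32, the folate and FAD carrier, Slc25a5, ADP/ATP carrier 2, and Slc25a34, whose substrate is unsettled. Their increases lay between 0.26 and 0.66 on the log2 scale. The only member called lower was Slc25a31, ADP/ATP carrier 4, which was near the detection floor and met the mean filter through its WT values alone, so its call is given as a description. Without it, 5 of 41 members (12.2%) were called and 0 were lower. With it, the 6 called members are 14.3% of the family, beside 7.91% of all genes tested, and beside 1440 of 14392 protein-coding genes tested. Higher were 11.9% of the members and 4.72% of all genes, and lower were 2.38% and 3.19%. Members were more abundant than the typical gene tested (median value 96.4 beside 38.6). Among genes with a mean of at least 10, fitted alone, the shares called were close, 13.5% of members and 12.2% of all genes. Ranges of WT and Mettl3 KO values were separate in 7 members (16.7%) and in 11.5% of all genes. The 5 calls of an increase depended on limma's trend of variance with mean: without it the fold changes were the same but none passed, with Slc25a51 closest (adjusted p = 0.0515), and 321 genes were called in place of 1607.

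**Figure D1:**
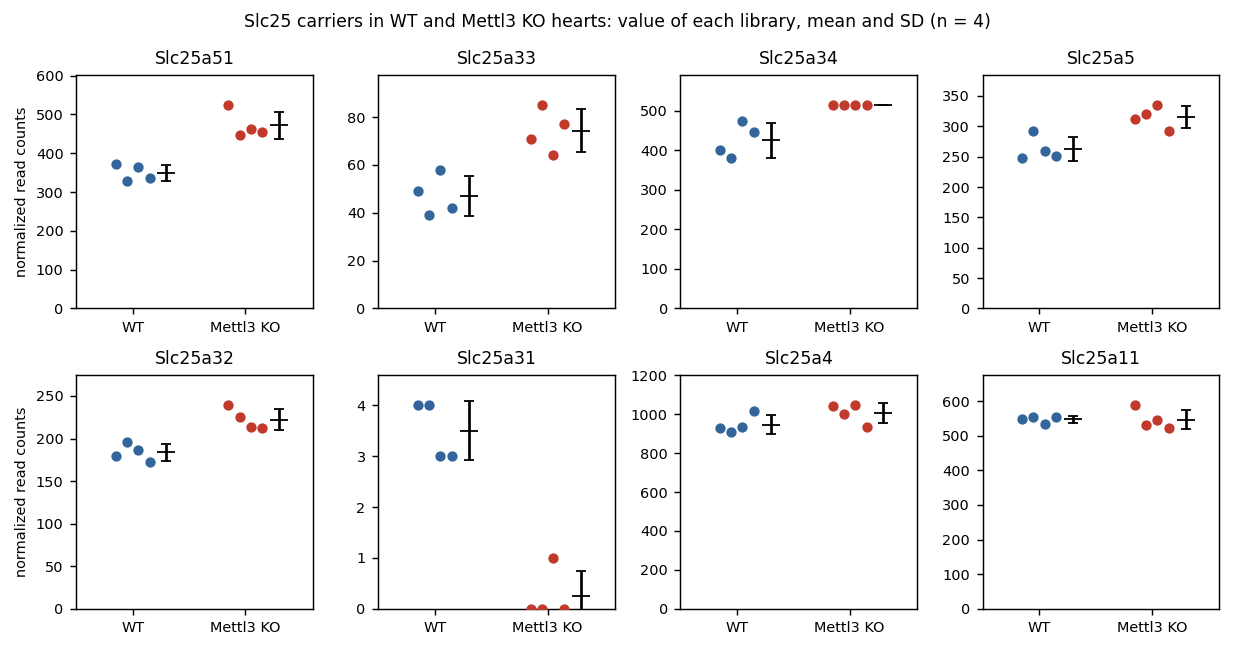
Normalized read counts of 6 called carriers and of the abundant carriers Slc25a4 and Slc25a11 (vertical axes, each from 0) in each WT (blue) and Mettl3 KO (red) library, with the mean and SD of 4 libraries in black. Slc25a51 lies between 328 and 371 in WT libraries, against 446 to 524 in Mettl3 KO libraries, while the points of Slc25a4 and Slc25a11 overlap.

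Among the carriers of cofactors and nucleotides 3 of 9 members were higher, beside 4.72% of all genes, none was lower, beside 3.19%, and 6 were not called. Whether this group differed from other genes was not tested. Slc25a51 (ENSMUSG00000045973, mm39 chromosome 4, 45395923 to 45408766, minus strand) provides the NAD+ pool of the matrix. It had 371, 328, 364 and 336 normalized read counts in the WT libraries and 524, 446, 462 and 455 in the Mettl3 KO libraries. Each Mettl3 KO library was above each WT library, and replicate 1 was the highest. Its mean rose from 350 ± 21.0 to 472 ± 35.4 (SD, n = 4), which is 135% of the WT level, with a log2 fold change of 0.43 (adjusted p = 7.97e-05 in limma, SE 0.06).

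Slc25a33 (ENSMUSG00000028982, chromosome 4, 149828493 to 149858734, minus strand) imports pyrimidine nucleotides that serve mitochondrial DNA and RNA synthesis. It had 49, 39, 58 and 42 normalized read counts in WT libraries, against 71, 85, 64 and 77 in Mettl3 KO libraries. The genotypes did not overlap, although WT replicate 3 and Mettl3 KO replicate 3 were close. The mean rose from 47.0 ± 8.45 to 74.2 ± 8.92 (SD, n = 4), or to 158% of WT, with a log2 fold change of 0.66 (adjusted p = 0.00379 in limma, SE 0.14). This was the largest increase among the called members. Slc25a36, which also carries pyrimidine nucleotides and shared 64.3% of aligned coding bases with Slc25a33, had 386, 367, 401 and 346 in WT libraries, against 397, 400, 367 and 369 in Mettl3 KO libraries. Its values overlapped, with a log2 fold change of 0.03 (95% interval -0.09 to 0.15).

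Slc25a32 (ENSMUSG00000022299, chromosome 15, 38954626 to 38976111, minus strand), through which folate and FAD enter the matrix, had 180, 196, 187 and 173 normalized read counts in WT libraries, against 239, 225, 213 and 212 in Mettl3 KO libraries. Every Mettl3 KO value exceeded every WT value. Its log2 fold change was 0.27 (adjusted p = 0.0186 in limma, SE 0.07), a rise to 121% of WT. This call was lost without WT replicate 1 or 4, or Mettl3 KO replicate 1 or 2, with adjusted p between 0.0141 and 0.117 over all alternatives.

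The other 6 members of the group were not called. Slc25a16, linked to coenzyme A transport, had 164, 163, 172 and 176 in WT libraries, against 142, 144, 160 and 140 in Mettl3 KO libraries. All Mettl3 KO values were below all WT values, yet the log2 fold change of -0.20 did not pass the threshold (limma adjusted p = 0.112). Slc25a42, a coenzyme A carrier, had 196, 179, 209 and 172 in WT libraries, against 235, 208, 201 and 205 in Mettl3 KO libraries, with a log2 fold change of 0.17 (limma adjusted p = 0.217). Its values overlapped. The peroxisomal carrier Slc25a17 (-0.09) and the S-adenosylmethionine carrier Slc25a26 (0.14) had intervals that included 0. Slc25a26 supplies the matrix with the methyl donor that METTL3 also uses in its own compartment, and its mean was 67.5 ± 8.66 in WT and 74.0 ± 5.89 in Mettl3 KO libraries (SD, n = 4). The gene overlaps Lrig1 on the opposite strand, which was called higher (0.25, limma adjusted p = 0.0417). The authors counted reads by strand.

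Of the 3 ADP/ATP carriers Slc25a5 was higher (beside 4.72% of all genes), Slc25a31, tested only through its WT values, was lower (beside 3.19%), and the most abundant was not called. Slc25a4 (ENSMUSG00000031633, chromosome 8, 46659834 to 46664321, minus strand), the form of heart and skeletal muscle, had 929, 909, 937 and 1015 normalized read counts in WT libraries, against 1044, 1004, 1046 and 935 in Mettl3 KO libraries. WT replicate 4 and Mettl3 KO replicate 4 crossed the other genotype's range. Its log2 fold change was 0.09 (95% interval -0.01 to 0.19, limma adjusted p = 0.303).

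Slc25a5 (ENSMUSG00000016319, chromosome X, 36059304 to 36062460, plus strand), the form found in many tissues and in dividing cells, had 247, 292, 260 and 251 in WT libraries, against 312, 320, 335 and 292 in Mettl3 KO libraries. The genotypes touched at 292, the highest WT and the lowest Mettl3 KO value. The mean rose from 262 ± 20.4 to 315 ± 17.9 (SD, n = 4), or 120% of WT, with a log2 fold change of 0.26 (adjusted p = 0.0157 in limma, SE 0.07). The call was lost without WT replicate 1 or 4 or Mettl3 KO replicate 2 or 3, and with an index of atrial genes in the fit, where the log2 fold change was as large (0.27) and its SE rose to 0.10. Adjusted p lay between 0.0076 and 0.157 over all alternatives. Fibroblast markers, given above, rose in the same libraries, and their part in the value of Slc25a5 was not tested.

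Slc25a31 (ENSMUSG00000069041, chromosome 3, 40663285 to 40680527, plus strand), known as the testis form, had 4, 4, 3 and 3 normalized read counts in WT libraries, against 0, 0, 1 and 0 in Mettl3 KO libraries. The genotypes did not overlap, and both were at the lower end of what the libraries resolve. The fitted log2 fold change was -1.91 (SE 0.47) and depends on the pseudocount. It passed the limma threshold, but since the mean of the Mettl3 KO libraries was under 1 the gene was tested only because of its WT values. As a ratio of sums, 1 against 14 scaled to the library totals, Mettl3 KO hearts had 0.0709 of the WT level. The sums are of normalized and rounded values, so this ratio is a description without an interval.

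The phosphate and metal carriers included no called gene among 3. Slc25a3, which supplies phosphate and copper to the matrix, had 874, 834, 889 and 941 in WT libraries, against 890, 891, 941 and 868 in Mettl3 KO libraries. The ranges overlapped almost entirely, with a log2 fold change of 0.02 (95% interval -0.07 to 0.12). The iron carriers, the mitoferrins Slc25a37 and Slc25a28, had log2 fold changes of -0.16 and 0.12. Slc25a37, the form of red cell precursors, lay between 99 and 152 in WT libraries, against 102 to 116 in Mettl3 KO libraries, and Slc25a28 between 114 and 134 in WT, against 120 to 139 in Mettl3 KO libraries. Erythroid markers summed to 175 to 292 in WT and 126 to 206 in Mettl3 KO libraries, with none of 6 called. Their part in the values of Slc25a37 was not tested.

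Both carriers of glutathione, the main thiol of the matrix, had lower means in Mettl3 KO hearts and neither was called. Slc25a40 had 124, 130, 120 and 137 in WT libraries, against 118, 113, 105 and 103 in Mettl3 KO libraries, without overlap (log2 fold change -0.22, limma adjusted p = 0.143). Slc25a39 had 130, 124, 123 and 132 in WT libraries, against 108, 120, 123 and 90 in Mettl3 KO libraries (-0.21, limma adjusted p = 0.21). WT and Mettl3 KO replicate 3 had equal values of Slc25a39, and Mettl3 KO replicate 4 was the lowest, without which the difference was -0.12.

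None of the 3 carriers of dicarboxylates and tricarboxylates was called. Slc25a11, the oxoglutarate carrier of the malate-aspartate shuttle, had 548, 554, 534 and 555 in WT libraries, against 588, 532, 545 and 523 in Mettl3 KO libraries. Its log2 fold change of -0.00 had a 95% interval of -0.11 to 0.10. The dicarboxylate carrier Slc25a10 had 37, 59, 43 and 31 in WT libraries, against 42, 49, 49 and 45 in Mettl3 KO libraries. Its log2 fold change was 0.16, but 0.02 without WT replicate 4 and 0.32 without WT replicate 2. The citrate carrier Slc25a1 lay between 15 and 24 in WT libraries and had a log2 fold change of 0.06.

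Of 9 amino acid carriers none was called, with log2 fold changes between -0.28 and 0.53. The aspartate-glutamate carriers, which complete the malate-aspartate shuttle and are regulated by calcium, were among the most abundant members. Slc25a12 had 598, 621, 608 and 556 in WT libraries, against 645, 612, 624 and 560 in Mettl3 KO libraries, a log2 fold change of 0.03 (95% interval -0.08 to 0.14) that ranged from 0.0012 (without WT replicate 4) to 0.075 (without Mettl3 KO replicate 4) with single libraries left out. Slc25a13 had 573, 527, 557 and 534 in WT libraries, against 601, 552, 573 and 547 in Mettl3 KO libraries, a log2 fold change of 0.05 (95% interval -0.05 to 0.16). Among Mettl3 KO libraries, both genes were highest in replicate 1 and lowest in replicate 4, and the values of both overlapped between genotypes.

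The ends of the amino acid carrier range were Slc25a22 and Slc25a29. Slc25a22, a glutamate carrier, had 78, 97, 117 and 91 in WT libraries, against 76, 88, 81 and 67 in Mettl3 KO libraries (-0.28, limma adjusted p = 0.175). The difference was -0.18 without WT replicate 3 and -0.08 with the atrial index in the fit. Slc25a29, a carrier of basic amino acids, had 12, 10, 15 and 16 in WT libraries, against 30, 17, 15 and 18 in Mettl3 KO libraries (0.53, limma adjusted p = 0.243). For both genes the values overlapped. The highest value of Slc25a29, 30, came from Mettl3 KO replicate 1, against 15 to 18 in the other Mettl3 KO libraries. The ornithine carrier Slc25a15 (-0.12), the glycine carrier Slc25a38 (-0.15) and the branched-chain amino acid carrier Slc25a44 (0.05) lay between them. The ornithine carrier Slc25a2 had at most 8 normalized read counts in any library. The glutamate carrier Slc25a18 had 4, 3, 5 and 2 in WT libraries, against 8, 4, 2 and 4 in Mettl3 KO libraries. The intervals of both spanned more than 1 on the log2 scale.

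The calcium-regulated carriers that exchange ATP-Mg for phosphate did not include a called gene among 3. Slc25a23 lay between 126 and 160 in WT libraries, against 145 to 170 in Mettl3 KO libraries (0.13). Slc25a24 lay between 69 and 102 in WT, against 76 to 115 (0.07), and Slc25a25 between 47 and 52, against 41 to 59 (0.00). Spread among the Mettl3 KO libraries of Slc25a25, 8.26 (SD), exceeded that among the WT libraries, 2.36.

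None of the 3 carriers that resemble uncoupling proteins was called. Slc25a30 had 69, 70, 65 and 56 in WT libraries, against 48, 60, 44 and 56 in Mettl3 KO libraries (-0.32, limma adjusted p = 0.154), with overlap. Slc25a27 (-0.11) lay between 64 and 79 in WT libraries, against 63 to 76 in Mettl3 KO libraries. Slc25a14 (-0.11) had 10, 9, 10 and 7 in WT libraries, against 9, 8, 4 and 15 in Mettl3 KO libraries. Its mean was 9 in both genotypes, so the negative value holds on the log scale only, and it was 0.19 without Mettl3 KO replicate 3.

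Slc25a46, a member that sits in the outer membrane and takes part in mitochondrial fission and lipid transfer, had 531, 514, 512 and 491 in WT libraries, against 565, 574, 589 and 530 in Mettl3 KO libraries. The ranges overlapped by 1 normalized read count. Its log2 fold change was 0.14 (95% interval 0.04 to 0.24, limma adjusted p = 0.0941), and no alternative brought it past the threshold.

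Of 6 members with an unsettled substrate 1 was called, beside 7.91% of all genes. Slc25a34 (ENSMUSG00000040740, chromosome 4, 141346135 to 141351132, minus strand) had 400, 380, 475 and 447 normalized read counts in WT libraries, against 515, 514, 514 and 515 in Mettl3 KO libraries. The Mettl3 KO libraries were nearly equal and lay above each WT library. The mean rose from 426 ± 43.3 to 514 ± 0.577 (SD, n = 4), which is 121% of WT, with a log2 fold change of 0.28 (adjusted p = 0.00522 in limma, SE 0.06). The related Slc25a35, at 27.5 ± 3.11 in WT and 24.8 ± 3.40 in Mettl3 KO hearts (SD, n = 4), had a log2 fold change of -0.15 (limma adjusted p = 0.732). Slc25a43, Slc25a45, Slc25a47 and Slc25a53 had log2 fold changes between -0.10 and 0.14. Slc25a29 and Slc25a47 lie on opposite strands of chromosome 12 with 162 bases between them, and both had their highest value in Mettl3 KO replicate 1. Neither was called, and 15 of the 42 members were highest among Mettl3 KO libraries in replicate 1 (ties included).

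**Figure D2:**
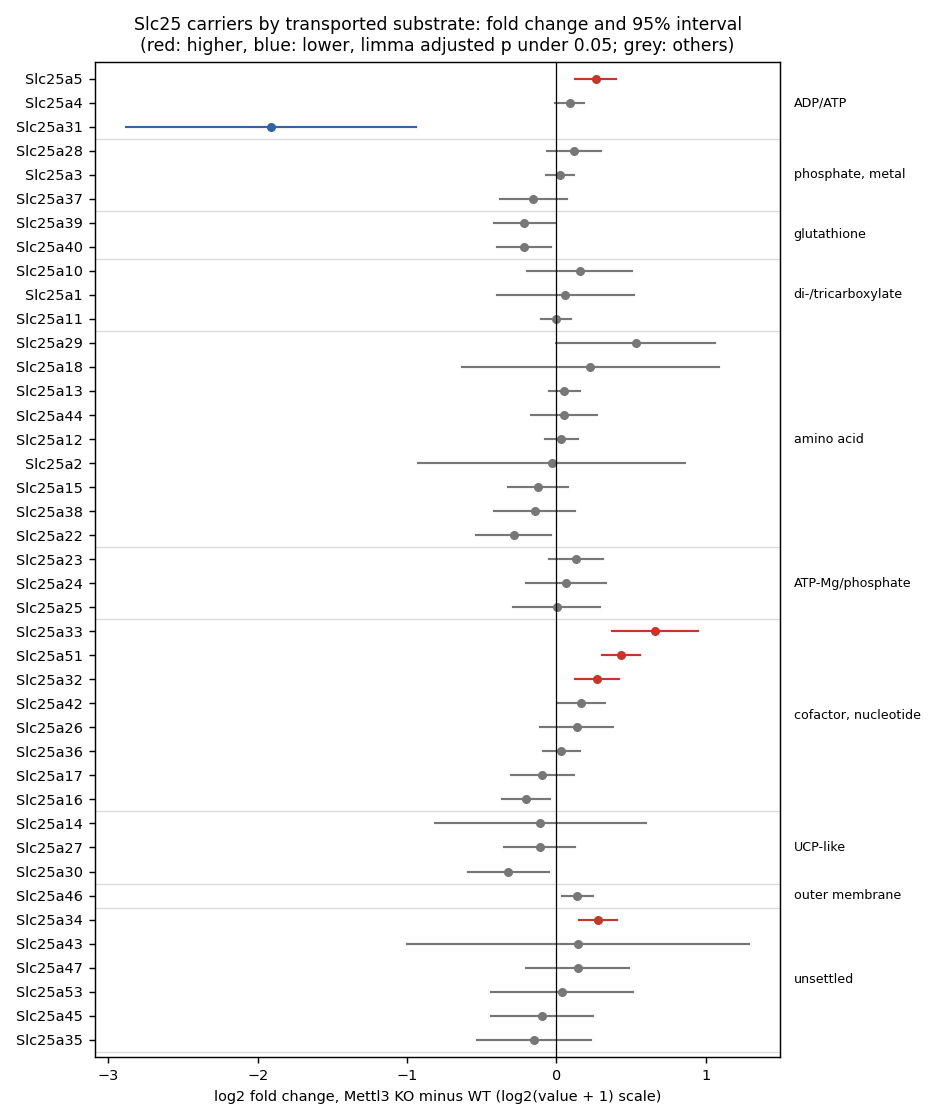
Log2 fold change of Mettl3 KO against WT hearts (horizontal axis, log2(value + 1) scale) for 41 carriers grouped by substrate, with 95% intervals. Red points are the 5 genes called higher, the blue point is Slc25a31, and grey points were not called. Of the 41 points, 32 lie within 0.25 of 0.

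Most members had a log2 fold change under 0.25 in size, and their spread was not compared with that of other genes. The log2 fold change was positive in 25 and negative in 17 members, with a median of 0.04 beside -0.01 over all genes tested. The median was 0.01 without WT replicate 4, 0.02 without Mettl3 KO replicate 2 and 0.03 to 0.05 without any other single library. It was smaller than 0.25 in size in 33 members, and the 95% interval lay within 0.5 on either side of 0 in 28. For the 20 members with a mean of at least 100 normalized read counts, the interval reached a median of 0.14 to either side of the estimate. At an unadjusted p under 0.05 there were 13 members (31.0%, beside 20.6% of all genes tested), 7 higher and 6 lower. The mean value of a member was between 1.88 and 977 normalized read counts, with a median of 96.4 beside 38.6 over all genes tested. In 5 members the mean was under 10, and among the other 37 members 5 were higher and none was lower. In a fit of genes with a mean of at least 10, the share called was 13.5% of members and 12.2% of all 13795 genes.

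**Figure D3:**
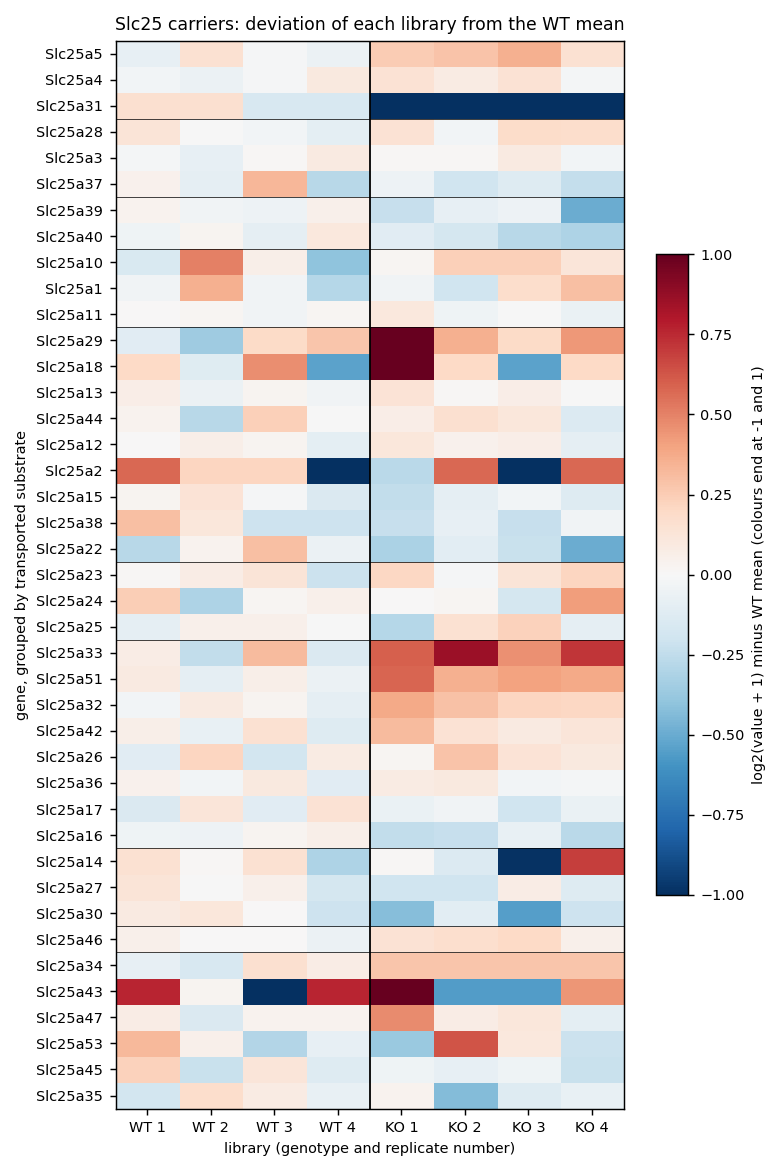
Each row is a carrier, grouped by substrate as in the plot of fold changes, and each column a library. Colour gives log2(value + 1) minus the mean of the WT libraries, ending at -1 and 1. Slc25a33 and Slc25a51 are red in all 4 Mettl3 KO columns, while rows of low genes such as Slc25a43 and Slc25a2 change colour from library to library.

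Levels of different genes were compared per kb, with the length taken either as the sum of all annotated exons or as the transcript with the longest coding part, the latter chosen after seeing the data. The 2 lengths of Slc25a3 were 5550 and 1341 bases, so its place depended on this choice. In WT hearts Slc25a4 had 403 ± 19.8 normalized read counts per kb of exon and 492 ± 24.2 per kb of transcript, and Slc25a3 had 159 ± 7.97 and 660 ± 33.0 (SD, n = 4). Slc25a4 thus ranked first per kb of exon and Slc25a3 first per kb of transcript. Slc25a11 was below Slc25a4 on both scales, with 258 ± 4.56 and 320 ± 5.65.

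Slc25a5 had 159 ± 12.4 per kb of exon and 212 ± 16.5 per kb of transcript in WT hearts, not corrected for the windows it shares with pseudogenes. Slc25a34 had 159 ± 16.2 on both scales, and Slc25a13 had 144 ± 5.57 and 176 ± 6.78. The spreads of Slc25a34 and Slc25a13 overlapped, and their order differed between the scales. Slc25a46 (94.4 ± 3.02 and 117 ± 3.75) and Slc25a12 (81.1 ± 3.83 and 93.8 ± 4.43) ranked 7 and 8 on both.

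Among the called members, Slc25a51 rose from 63.5 ± 3.80 to 85.6 ± 6.43 per kb of exon (rank 9 to 8) and from 78.9 ± 4.73 to 106 ± 8.00 per kb of transcript (rank 10 to 8). Slc25a33, whose 2 lengths are equal, rose from 24.9 ± 4.48 to 39.3 ± 4.73 (SD, n = 4). This brought it next to Slc25a36 per kb of exon (39.9 ± 1.84 in Mettl3 KO hearts) but not per kb of transcript (73.3 ± 3.38). Slc25a31 had 1.64 ± 0.271 on both scales in WT hearts.

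**Figure D4:**
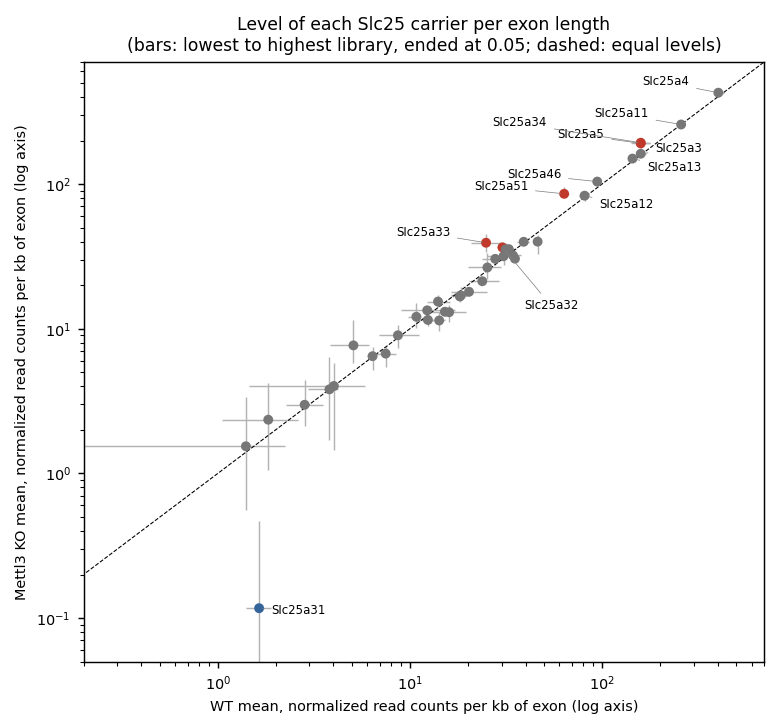
Mean normalized read counts per kb of exon in WT (horizontal) and Mettl3 KO hearts (vertical), both on log axes, for 41 carriers. Grey bars run from the lowest to the highest of 4 libraries, and meet the lower or left edge of the plot where a library is at 0, and the dashed line marks equal levels. Most points lie near the line over the whole range up to Slc25a4 at 403 and 428, red points (called higher) lie above it, and Slc25a31 (blue) lies below it.

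Summed over the 42 members, normalized read counts were 7911, 7748, 8069 and 7771 in WT libraries, against 8524, 8298, 8405 and 7967 in Mettl3 KO libraries. The lowest Mettl3 KO total lay within the WT range. The family took 0.271 to 0.28% of the library in WT and 0.281 to 0.292% in Mettl3 KO hearts.

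To ask whether the balance within pairs of like carriers shifted, the log2 ratio of 10 pairs was compared between genotypes with a two-sided exact permutation test over 70 assignments of the libraries. The ratio of Slc25a36 over Slc25a33 was 2.95, 3.20, 2.77 and 3.01 in WT libraries, against 2.47, 2.22, 2.50 and 2.25 in Mettl3 KO libraries on the log2 scale. It fell by 0.63 without overlap, at the smallest p that this exact test can give (0.0286), but the p adjusted over the 10 pairs was 0.286. No pair passed the threshold after adjustment, which a single separated pair could not do (its adjusted p cannot go below 0.286). At least 6 pairs would have had to separate at once.

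The ratio of the mitoferrins Slc25a37 over Slc25a28 differed by -0.27 (exact p = 0.0571, adjusted p = 0.286), and by -0.15 without WT replicate 3, whose ratio of 0.34 was the only positive one. That of Slc25a5 over Slc25a4 differed by 0.17 (exact p = 0.143, adjusted p = 0.48). Ratios of the aspartate-glutamate carriers (Slc25a13 over Slc25a12, difference 0.02) and of the glutathione carriers (Slc25a40 over Slc25a39, difference -0.00) were nearly equal in both genotypes. Among Mettl3 KO libraries the ratio of the glutathione carriers varied more (SD 0.193) than among WT libraries (SD 0.0662).

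**Figure D5:**
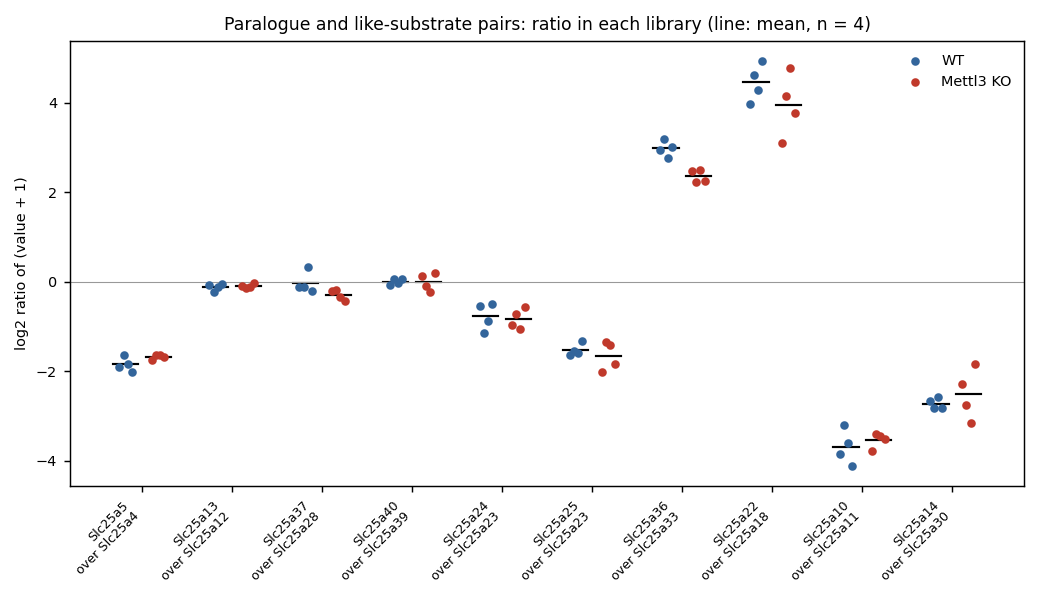
Log2 ratio of the values (each plus 1) of 10 pairs of carriers with like substrates or sequences (horizontal axis) in each WT (blue) and Mettl3 KO (red) library. Lines mark the mean of 4 libraries. Only for Slc25a36 over Slc25a33 do the colours separate, with WT between 2.77 and 3.20 and Mettl3 KO between 2.22 and 2.50.

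Transcripts of the called members were then searched for GGACT, a sequence whose adenine is a favoured target of METTL3. m6A was not measured in these libraries, and a match is only a match of letters on the transcript strand. The median member held 1.12 matches per kb of transcript, beside 1.054 over 14315 protein-coding genes. Slc25a33 held 5 matches, or 2.65 per kb, and Slc25a5, Slc25a51, Slc25a34 and Slc25a32 held 1.613, 1.128, 1.124 and 1.016 per kb. Slc25a31 held 0.94 per kb, and Slc25a25, with a log2 fold change of 0.00, held 2.732. The matches of Slc25a33, the called member with the most per kb, are shown with the bases around them and GGACT in capitals. The first 3 lie in the coding part, with the adenine at 219, 705 and 870 counted from the first coding base, and the other 2 after it (GENCODE vM21 transcript of 1887 bases).
Slc25a33 at 219: gtgacgcctGGACTcctacaggt
Slc25a33 at 705: ggcttctttGGACTcatggcagc
Slc25a33 at 870: ttctaccgaGGACTgtttgctca
Slc25a33 at 1183: aacttaagaGGACTgaggattga
Slc25a33 at 1331: gacttgtggGGACTgagtggtgg

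The 250 bases before the start site were available from RefSeq (GRCm38.p6) for 32 members, not including Slc25a51 and Slc25a32, and were searched on both strands for 4 motifs. A member was counted if any of its windows held the motif, while the other shares are of single windows, so the units are not alike. The E-box CACGTG was present in 7 members (21.9%), beside 6.02% of all 32851 windows and 7.9% of 14420 windows of protein-coding genes tested, and 2 of these 7, Slc25a33 and Slc25a31, were called, in opposite directions. The letters CCAAT were present in 17 members (53.1%), beside 33.8% and 34.8%. AAGGTCA, bound by estrogen-related receptors, was present in Slc25a34 alone (3.12% of members, 4.08% of all windows, 2.88% of those of protein-coding genes). TGATGNAAT, bound by ATF4 (0.816% of all windows, 0.458% of those of protein-coding genes), was found in none of the 32. The windows of Slc25a33 (GRCm38.p6 chr4:149774268-149774517, minus strand) and Slc25a34 (GRCm38.p6 chr4:141623835-141624084, minus strand) are shown as called members that hold motifs, with matches in capitals. In Slc25a33 CCAAT begins 81 and CACGTG 8 bases before the start. In Slc25a34 AAGGTCA lies on the other strand, beginning 119 bases before the start, and CCAAT, also on the other strand, 64 bases before it.
Slc25a33: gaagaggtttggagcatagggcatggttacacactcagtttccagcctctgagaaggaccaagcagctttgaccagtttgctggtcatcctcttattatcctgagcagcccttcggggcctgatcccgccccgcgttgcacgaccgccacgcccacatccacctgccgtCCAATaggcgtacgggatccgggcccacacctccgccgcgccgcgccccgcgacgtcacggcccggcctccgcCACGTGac
Slc25a34: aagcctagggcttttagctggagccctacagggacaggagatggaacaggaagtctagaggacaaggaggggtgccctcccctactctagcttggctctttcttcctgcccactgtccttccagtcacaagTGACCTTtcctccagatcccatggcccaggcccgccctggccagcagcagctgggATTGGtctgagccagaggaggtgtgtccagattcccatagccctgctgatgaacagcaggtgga

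Carriers reach the inner membrane through the TOM pore, small TIM chaperones and the TIM22 complex. Of 16 genes of this route 3 were called higher, beside 4.72% of all genes, none was called lower, and the median log2 fold change was 0.14. Tomm40, the pore of the outer membrane, had 170, 190, 161 and 151 normalized read counts in WT libraries, against 198, 203, 206 and 203 in Mettl3 KO libraries, without overlap (0.27, adjusted p = 0.0289 in limma, SE 0.08). Tomm5, a small subunit of the same pore complex, had 37, 46, 34 and 30 in WT libraries, against 54, 63, 63 and 46 in Mettl3 KO libraries, touching at 46 (0.61, adjusted p = 0.0164 in limma, SE 0.16). Timm8b, a small TIM chaperone, had 51, 60, 63 and 63 in WT libraries, against 86, 89, 71 and 75 in Mettl3 KO libraries, without overlap (0.43, adjusted p = 0.0261 in limma, SE 0.12). Of 20 alternatives, 12 kept the call of Tomm40, 15 that of Tomm5 and 13 that of Timm8b. All 3 calls were lost without Mettl3 KO replicate 2, with the atrial index and without the variance trend, and some with other libraries left out, but the fold changes stayed at 0.21 or more.

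Relatives of the family with other symbols were not called (0 of 4 tested). Ucp2 and Ucp3, uncoupling proteins, had log2 fold changes of -0.30 and 0.19, and the carrier-like outer membrane genes Mtch1 and Mtch2 of 0.16 and -0.17 (limma adjusted p between 0.0773 and 0.508).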

How the data were processed

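Strand-specific RNA-seq of whole-heart RNA gave single-end reads of 72 nt. Trimming by the authors used Trimmomatic 0.39 and alignment to mm39 (Ensembl 109) STAR 2.7.11a. They removed duplicate (Picard 3.1.1), multi-mapping, ribosomal and mitochondrial reads, and counted exons by strand with featureCounts 2.0.4. The authors normalized counts with DESeq2 1.36.0. The deposited values are a score, read here as these normalized counts rounded to whole numbers, since their pattern is not that of raw counts. Removing multi-mapping reads lowers genes with close copies.

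All 20313 genes whose mean reached 1 entered one limma model (version 3.58.1, R 4.3.3) of log2(value + 1) on genotype alone, with the variance following a trend on the mean and Benjamini-Hochberg adjustment across these genes. Fold changes on this scale understate changes of low genes. No count model was run. Pair ratios were tested by exact permutation. All tests were two-sided. Precision is limited by 4 libraries a group and library totals of 2839589 to 2916986 normalized read counts. Genotypes and replicate numbers came from the labels.

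Values in every library are given for members that were called, did not overlap between genotypes or had the 8 highest means, and for others of the pairs as values or ranges. The members, substrate groups, pairs, related lists and markers were chosen with earlier results of these data known. Exon lengths and transcripts came from GENCODE vM21 (GRCm38), matched by gene identifier for 42 of 42 members with none of its coordinates used, and promoters from RefSeq. Of the members, 1 enters all counts and sums but is not reported singly here or plotted. Alternatives were other scalings, filters, pseudocounts and moderation, limma voom, the replicate number as a block, an index of atrial genes as covariate and each library left out. For levels per kb, transcript length was added after seeing the data.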

Additional observations from a re-analysis of the deposited data

Results flagged for a closer look

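Of 84 groups of 4 libraries (each member in each genotype), 1 held a library apart from the rest by Dixon's criterion, where chance gives 4.2. Slc25a31, the testis form of the ADP/ATP carrier, was listed at 1 in Mettl3 KO replicate 3 and at 0 in the other Mettl3 KO libraries, so the distance is 1 normalized read count (gap over range 1.0).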

How the results depend on the processing

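Of the 20 alternatives, leaving out the mean-variance trend changed most. It called 321 genes in place of 1607, and 1 member, Slc25a31, in place of 6, so that 0 members were higher. Adjusted p of Slc25a51, Slc25a33 and Slc25a34 was then 0.0515, 0.0786 and 0.151, and these 3 genes were called under each other alternative. With a mean of at least 10 the count of lower members was 0, since Slc25a31 was not tested. With the atrial gene index added to the model it was also 0. Slc25a31 (adjusted p = 0.114) and Slc25a5 (adjusted p = 0.142) were lost with log2 fold changes of -2.15 and 0.27, no smaller than before and with SEs that rose to 0.76 and 0.10, and Slc25a42 was gained. Without each library in turn, 3 to 5 members were higher. There were 3 (Slc25a51, Slc25a33 and Slc25a34) without WT replicate 1, WT replicate 4 or Mettl3 KO replicate 2. These fits also had fewer libraries, and the cause of the losses was not tested. The replicate block gave the same 6 members and 1346 calls over all genes, without Timm8b and Abcb8. Deviations of same-numbered libraries correlated at -0.0414 to 0.0878 across genes, so the numbers were not taken to pair the libraries.

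Among alternatives that moved a difference without a call by over 1.5 times, leaving out WT replicate 4 gave 0.06 for Slc25a23 and -0.25 for Slc25a37. Leaving out WT replicate 3 gave -0.04 for Slc25a37. Without Mettl3 KO replicate 1, Slc25a12 was at 0.0067 and Slc25a13 at 0.026. Signs turned only in members that were not called. With the atrial index the log2 fold change was 0.063 for Slc25a11, -0.046 for Slc25a24, -0.16 for Slc25a25 and 0.11 for Slc25a37. Without a change of sign, it also moved Slc25a18 to 1.06, Slc25a23 to 0.24, Slc25a4 to 0.14, Slc25a10 to 0.097 and Slc25a12, Slc25a13 and Slc25a36 to 0.13 each. A pseudocount of 5 gave -0.70 for Slc25a31, 0.14 for Slc25a18 and -0.052 for Slc25a14. Slc25a25 was -0.0092 with a common library total, -0.017 with quantile normalization, -0.0036 with median centring and -0.010 with limma voom. Leaving out single libraries gave -0.0061 to 0.052 for Slc25a3, -0.038 to 0.018 for Slc25a11, -0.37 to 0.19 for Slc25a14, -0.047 to 0.48 for Slc25a18, -0.052 to 0.15 for Slc25a24, -0.075 to 0.10 for Slc25a25 and -0.0055 to 0.065 for Slc25a36. Genes with a mean under 10 were limited by depth.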

Other observations

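Besides Slc25 carriers, 25 genes of other mitochondrial membrane transporters and membrane dynamics were read out, of which 1 was called higher and 1 lower (beside 4.72% and 3.19% of all genes), with a median log2 fold change of 0.04. Letm1, which takes part in cation exchange across the inner membrane, had 264, 288, 282 and 284 normalized read counts in WT libraries, against 391, 338, 344 and 329 in Mettl3 KO libraries, without overlap (0.32, adjusted p = 0.00202 in limma, SE 0.06). Abcb8, an ABC transporter of the inner membrane, had 153, 163, 141 and 150 in WT libraries, against 100, 135, 133 and 125 in Mettl3 KO libraries, also without overlap (-0.31, adjusted p = 0.0497 in limma, SE 0.09). Letm1 kept its call in 19 of 20 alternatives and Abcb8 in 9, the latter being lost without any 1 of 7 libraries (all but WT replicate 3). Pyruvate carriers, VDAC pores, sideroflexins and the calcium uniporter with its regulators were in this list and were not called.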
